A study of Mus musculus with 5 samples.

Results

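The genes described are 9 complement components and complement regulators, taken by symbol from the deposited table of FPKM, a read level scaled to transcript length and sequencing depth. They are the C1q chains C1qa, C1qb and C1qc, the central component C3, the alternative pathway genes Cfb and Cfp, and the regulators Serping1, Cd55 and Cd59a. All 9 were found among the 21878 genes of the table, and all 9 were at 1 FPKM or more in every sample. RNA-seq was performed on bone marrow-derived macrophages (BMDMs) treated with lipopolysaccharide (LPS), a bacterial stimulus. The wild-type group, Kdm6aF/Y, had 2 samples (replicates 1 and 3), and the Kdm6a-deficient group, Kdm6aF/Y;Lyz2-Cre, had 3 (replicates 1 to 3). Both genotypes carry the floxed allele of Kdm6a, an X-linked gene for a demethylase of histone H3. The Cre recombinase is driven by the myeloid gene Lyz2 and is present only in the Kdm6a-deficient group, so the presence of Cre and the loss of Kdm6a cannot be told apart. For BMDMs in general, the study's methods give marrow of 10-week-old male mice, 6 days with 10 ng/ml macrophage colony-stimulating factor, 3 days without it, and 100 ng/ml LPS for 24 h. RNA samples were pooled, according to the methods. Whether replicates stem from different mice is not stated, so the p-values measure no more than how far these samples scatter, and that scatter may be technical.

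Complement is a cascade of plasma proteins that marks particles for uptake and can pierce membranes. In the classical pathway, C1q binds antibody or damaged surfaces, and of its partner proteases C1r and C1s, C1s cleaves C4 and C2. In the alternative pathway, factor B and properdin build and stabilise an enzyme that cleaves C3 and so amplifies the response. Host cells restrain these steps with C1 inhibitor, with CD55, which speeds the decay of the C3-cleaving enzymes, and with CD59, which blocks the final membrane pore. Macrophages are a major source of C1q and also secrete C3, factor B and properdin.

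The targeted gene Kdm6a had levels of 3.72 and 2.91 FPKM in wild-type, against 2.81, 1.77 and 2.44 FPKM in Kdm6a-deficient BMDMs. The groups did not overlap, but the fall did not pass (limma adjusted p = 0.268), and the table has no level for the floxed exons alone. The macrophage marker Adgre1 was at 734 to 831 FPKM in all 5 samples. Of 8 macrophage markers, all tested, 1 fell and 0 rose, and 4 that did not pass lay higher in the Kdm6a-deficient samples without overlap. The marker that fell was Lyz2, the gene that drives Cre, at 18563 and 19359 FPKM in wild-type, against 8260, 9119 and 9127 FPKM in Kdm6a-deficient BMDMs (log2 fold change −1.10, limma adjusted p = 0.00722). Markers of stromal cells were abundant as well, with a summed level over 12 markers of 3271 to 3475 FPKM in wild-type and 2500 to 2520 FPKM in Kdm6a-deficient samples, and Col1a1 at 653 to 1114 FPKM. Of 11 tested stromal markers 5 were lower and 1 was higher in Kdm6a-deficient BMDMs. The summed level of 9 neutrophil markers was 2024 to 2141 FPKM in wild-type and 2029 to 2602 FPKM in Kdm6a-deficient samples. Members of this list differed widely. S100a8 was at 699 to 888 FPKM and S100a9 at 847 to 1195 FPKM over all 5 samples. Ngp was at 325 to 356 FPKM, while Ly6g was at 0.0731 to 0.199 FPKM. Of 4 tested monocyte markers 2 rose, and the summed level of 5 such markers was 144 to 145 FPKM in wild-type and 156 to 166 FPKM in Kdm6a-deficient samples. Of 3 tested endothelial markers 1 fell and all were lower without overlap, with a summed level over 6 markers of 19.8 to 20.0 FPKM in wild-type and 10.9 to 12.6 FPKM in Kdm6a-deficient samples. Among all tested genes 3.91% passed, and 16.7% lay higher and 19.2% lower in Kdm6a-deficient samples without overlap. The part of these cell types in the values of the complement genes was not tested. No T or NK cell marker and no dendritic cell marker reached the level tested, and the dendritic cell marker Xcr1 was at 0 in all samples. In bulk samples, fewer cells of a type and less RNA per cell cannot be told apart. Kdm6a-deficient sample 2 lay apart from the other samples of its genotype on the second principal component (−14.5 against 9.22 and 4.31). The wild-type samples were split on it as well, at 7.68 for sample 1 and −6.67 for sample 3.

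Among the 9 genes, Cd55 alone passed the test. It was higher in all 3 Kdm6a-deficient samples, while the C1q chains, Cfp and Cd59a overlapped between genotypes and C3, Cfb and Serping1 were slightly higher without passing. Of 10893 genes tested, 426 passed at an adjusted p under 0.05 (3.91%), 188 of them higher (1.73%) and 238 lower (2.18%). Of the 9 genes, 1 was higher and 0 were lower, and 3 had an unadjusted p under 0.05 in limma, a level that 1880 of all tested genes passed (17.3%). These genes were chosen with results of these data known, so this count is a description. In 4 of the 9, the Kdm6a-deficient samples all lay above the wild-type ones without overlap, against 16.7% of the tested genes. In 0 of the 9 they all lay below, against 19.2% of the tested genes. The median log2 fold change of the 9 was 0.03, against 0.0048 over all tested genes. The plot of levels by sample shows the whole set.

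**Figure D1:**
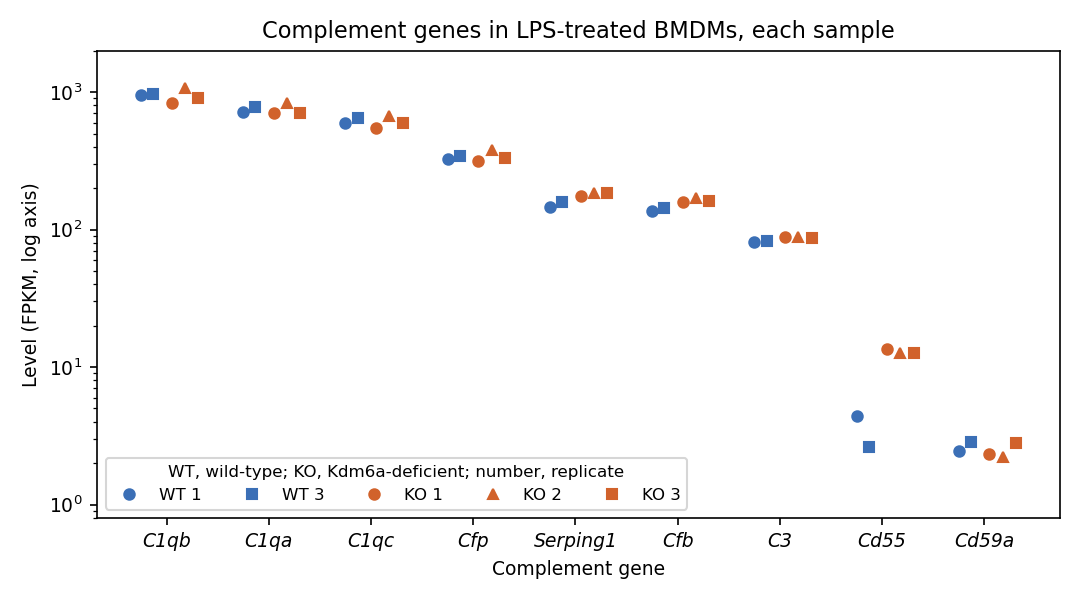
Level of each complement gene in FPKM on a log axis, with 1 point per sample (blue, 2 wild-type samples; orange, 3 Kdm6a-deficient samples; circle, triangle and square, replicates 1, 2 and 3). Cd55 sits at 2.64 and 4.38 FPKM in wild-type and at 12.6 to 13.5 FPKM in Kdm6a-deficient samples, and the other genes move little between genotypes.

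FPKM are scaled to transcript length, so levels of different genes can be set side by side only as far as the length used for each gene holds. Those lengths were not tested, so the order given here is one of FPKM and may not be that of transcripts. In both genotypes the order from the highest mean FPKM was C1qb, C1qa, C1qc, Cfp, Serping1, Cfb, C3, Cd55 and Cd59a. Neighbours in this order did not overlap in wild-type samples, apart from Cd55 and Cd59a. The authors' mean normalized counts in wild-type, which are not scaled to length, were nevertheless far apart, at 897 for Cd55 and 126 for Cd59a. In Kdm6a-deficient samples the ranges of C1qb and C1qa overlapped, although C1qb was the higher in every sample, and those of Cd55 and Cd59a did not.

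Cd55 (GeneID 13136, chromosome 1) encodes decay-accelerating factor, a surface protein that takes apart the enzymes that cleave C3. It was at 4.38 and 2.64 FPKM in wild-type samples 1 and 3, and at 13.5, 12.6 and 12.6 FPKM in Kdm6a-deficient samples 1, 2 and 3. The groups were far apart, and the wild-type samples differed from each other by 1.66-fold, more than those of any other gene of the 9. The wild-type mean was 3.51 ± 1.23 FPKM (SD, n = 2) and the Kdm6a-deficient mean, 12.9 ± 0.535 FPKM (SD, n = 3), was 3.68-fold higher on the FPKM scale. The log2 fold change, on the log2(FPKM + 1) scale used for all tests, was 1.65 (SE 0.16, 95% confidence interval 1.28 to 2.02, limma adjusted p = 0.0028). This was the 5th highest log2 fold change among all tested genes. Leaving out wild-type sample 3 gave 1.37, leaving out wild-type sample 1 gave 1.93, and Cd55 stayed past the threshold whichever sample was left out. The authors' mean normalized counts, which draw on 3 samples of each genotype and thus on a wild-type sample not analysed here, of Cd55 were 897 (wild-type) and 3141 (Kdm6a-deficient).

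Cd55b, the neighbouring copy of Cd55 whose reads could be confused with it, was at 0.0265 and 0 FPKM in wild-type, against 0.182, 0 and 0.0519 FPKM in Kdm6a-deficient BMDMs. These values are low next to those of Cd55, and Cd55b was below the level tested.

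The 250 bases before the start of Cd55 are shown because Cd55 is the member that changed. They are the RefSeq sequence of build GRCm38.p6, at chr1:130462745-130462994 on the minus strand, written 5′ to 3′. Capitals mark matches on either strand to 6 motifs that were searched by their letters. One was GAGGAA, the core bound by the macrophage factor PU.1. The AP-1 motif was TGANTCA and that of STAT factors TTCNNNGAA. The TATA box was TATAAA, the E-box CACGTG and the GC box GGGCGG.
Cd55 promoter: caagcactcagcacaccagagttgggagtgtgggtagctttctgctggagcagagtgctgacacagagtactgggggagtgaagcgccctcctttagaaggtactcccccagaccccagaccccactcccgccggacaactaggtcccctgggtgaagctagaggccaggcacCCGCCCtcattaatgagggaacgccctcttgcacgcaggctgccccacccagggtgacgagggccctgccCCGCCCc
The window held 2 matches to the GC box, which 32.7% of 32851 promoter windows of that length hold at least once, and no match to the other motifs. Its GC content was 64.0%, against a median of 52.4% over all windows. A match to letters is a description and not a binding site. Promoters were found for 6 of the 9 genes (Cd55, Cd59a, C1qb, C1qc, C3 and Cfp).

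No other tested membrane regulator passed. Cd59a (GeneID 12509, chromosome 2), whose product blocks the membrane pore, was at 2.45 and 2.85 FPKM in wild-type BMDMs, against 2.32, 2.20 and 2.79 FPKM in Kdm6a-deficient BMDMs. The genotypes overlapped, with a log2 fold change of −0.09 (95% confidence interval −0.34 to 0.17, limma adjusted p = 0.757). The authors' mean normalized counts of Cd59a were 126 and 123, far fewer reads than for the other genes described. Its copy Cd59b, next to it on the chromosome, was at 0.185 to 0.266 FPKM in all 5 samples. Cr1l, which encodes Crry, the rodent regulator that helps inactivate C3b on the cell surface, was at 31.7 and 33.5 FPKM in wild-type, against 32.0, 31.4 and 36.6 FPKM in Kdm6a-deficient BMDMs (log2 fold change 0.03, limma adjusted p = 0.911). In FPKM, Cr1l was thus above Cd55 in every sample of both genotypes. The authors' mean normalized counts, which are not scaled to length, gave this order in wild-type only. They were 1149 for Cr1l and 897 for Cd55 in wild-type, and 1199 and 3141 in Kdm6a-deficient BMDMs. Which of the 2 genes had more transcripts in Kdm6a-deficient BMDMs is therefore uncertain. Cd46 and Csmd1 were below the level tested, at 0.379 FPKM or less.

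Serping1 (GeneID 12258, chromosome 2) encodes C1 inhibitor, the secreted inhibitor of C1r, C1s and the lectin pathway proteases. It was at 145 and 158 FPKM in wild-type BMDMs, against 176, 184 and 185 FPKM in Kdm6a-deficient BMDMs. The groups did not overlap, with means of 152 ± 9.30 FPKM in wild-type (SD, n = 2) and 182 ± 4.72 FPKM in Kdm6a-deficient BMDMs (SD, n = 3). On the log2 scale the difference was 0.26 (SE 0.07, 95% confidence interval 0.09 to 0.43), which did not pass once adjusted over all genes (unadjusted p = 0.0092, limma adjusted p = 0.125).

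Cfb (GeneID 14962, chromosome 17) encodes factor B, the protease of the alternative pathway enzyme. It was at 137 and 144 FPKM in wild-type BMDMs, against 160, 169 and 162 FPKM in Kdm6a-deficient BMDMs. The groups again did not overlap, and the log2 fold change of 0.22 (SE 0.07, 95% confidence interval 0.05 to 0.38) did not pass (limma adjusted p = 0.173). C3 (GeneID 12266, chromosome 17), the component on which all pathways converge, was at 80.6 and 83.1 FPKM in wild-type, against 87.7, 88.5 and 87.2 FPKM in Kdm6a-deficient BMDMs. Here too the groups did not overlap, by a small step. The log2 fold change of C3 was 0.10 (95% confidence interval −0.05 to 0.25, limma adjusted p = 0.5), so that a rise of 1.19-fold or a small fall both lay within the interval. C3, Cfb and Serping1 had the same direction whichever sample was left out, at log2 fold changes of 0.079 to 0.12, 0.18 to 0.26 and 0.20 to 0.32.

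Cfp (GeneID 18636, chromosome X) encodes properdin, the stabiliser of the alternative pathway enzyme, which myeloid cells store and secrete. It was at 327 and 343 FPKM in wild-type BMDMs, against 313, 379 and 334 FPKM in Kdm6a-deficient BMDMs. Both the lowest and the highest value belonged to Kdm6a-deficient samples. The log2 fold change was 0.03 (95% confidence interval −0.20 to 0.25, limma adjusted p = 0.93), and it turned to −0.049 without Kdm6a-deficient sample 2. Cfd, which encodes the factor D protease of the same pathway, was listed at 0 in 4 samples and at 0.0533 FPKM in wild-type sample 3.

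C1qa, C1qb and C1qc (GeneIDs 12259, 12260 and 12262) encode the chains that assemble into C1q, and are neighbours on chromosome 4. C1qb was at 954 and 963 FPKM in wild-type BMDMs, against 837, 1076 and 905 FPKM in Kdm6a-deficient BMDMs. C1qa was at 717 and 779 FPKM in wild-type BMDMs, against 705, 838 and 711 FPKM in Kdm6a-deficient BMDMs. C1qc was at 599 and 649 FPKM in wild-type BMDMs, against 545, 671 and 592 FPKM in Kdm6a-deficient BMDMs. In each chain Kdm6a-deficient sample 1 was the lowest and Kdm6a-deficient sample 2 the highest of all 5, so that the wild-type samples lay inside the range of the Kdm6a-deficient ones.

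The log2 fold changes were 0.003 for C1qa (95% confidence interval −0.25 to 0.25), −0.04 for C1qb (−0.32 to 0.24) and −0.05 for C1qc (−0.31 to 0.20), with limma adjusted p = 0.994, 0.915 and 0.862. A change of up to about 1.19-fold in either direction thus lay within the interval of C1qa. Kdm6a-deficient sample 2 lay apart from its genotype on the second principal component, which also split the wild-type samples. Without it, the log2 fold changes were −0.078, −0.14 and −0.13 for C1qa, C1qb and C1qc. Both wild-type samples were then above the Kdm6a-deficient ones in each chain, and none passed (limma adjusted p = 0.493, 0.24 and 0.319). The summed level of the chains averaged 2330 ± 86.2 FPKM in wild-type (SD, n = 2) and 2293 ± 260 FPKM in Kdm6a-deficient BMDMs (SD, n = 3) (exact permutation test, two-sided, p = 0.9).

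The chains kept nearly fixed proportions. C1qb made up 40.1% to 42.0% of the summed level over all 5 samples, C1qa 31.6% to 33.8% and C1qc 26.0% to 27.1%. The shares differed between genotypes by 0.718 percentage points for C1qa, −0.264 for C1qb and −0.454 for C1qc (exact permutation tests, two-sided, p = 0.6, 0.7 and 0.4, 3 shares compared), where 0.1 is the smallest p that 2 samples against 3 allow. With 1 sample left out these differences were unstable. They ran from 0.214 to 1.22 points for C1qa, from −1.15 to 0.618 for C1qb and from −0.832 to −0.0762 for C1qc, with the extremes reached without wild-type sample 1 or 3, and that of C1qb was also positive without Kdm6a-deficient sample 1 (0.136). The samples therefore differed more in the summed level of C1q (2087 to 2586 FPKM) than in its make-up.

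**Figure D2:**
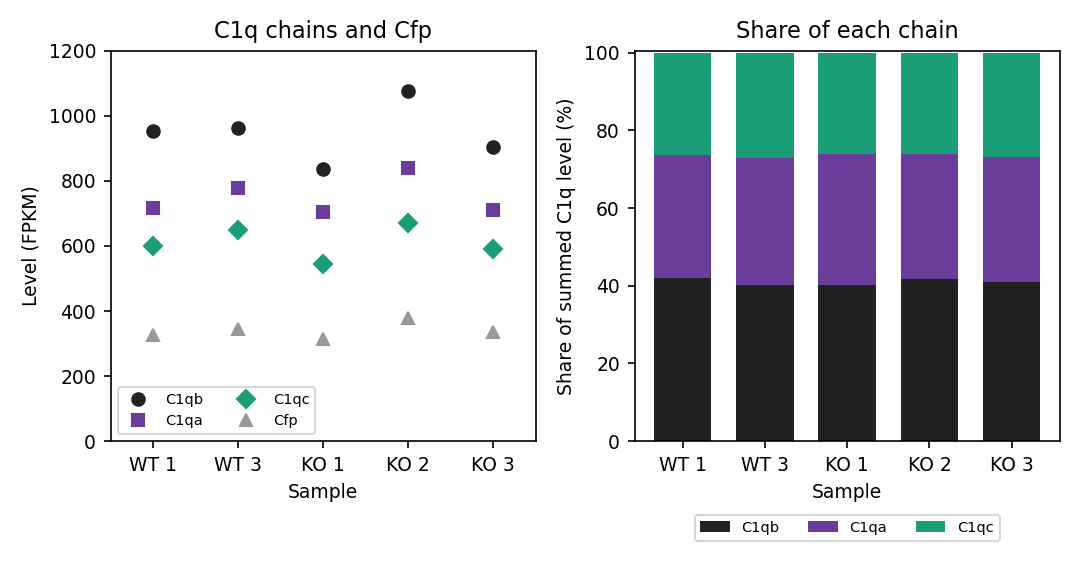
Left, level in FPKM of C1qb, C1qa, C1qc and Cfp in each of the 2 wild-type (WT) and 3 Kdm6a-deficient (KO) samples. Right, share of each chain in the summed C1q level as a stacked bar per sample. All 4 genes are highest in Kdm6a-deficient sample 2 and lowest in Kdm6a-deficient sample 1, and C1qb holds 40.1% to 42.0% of the C1q level throughout.

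The C1q neighbours moved together between samples, but this was not particular to them. Cfp, on chromosome X, was also lowest in Kdm6a-deficient sample 1 and highest in Kdm6a-deficient sample 2. Genes outside the complement list, given below, also followed the mean of the chains closely. The promoters of C1qb and C1qc are shown as a description only. They are the 250 bases before each start in RefSeq, build GRCm38.p6, at chr4:136886201-136886450 and chr4:136892915-136893164, both on the minus strand, with the same motifs in capitals.
C1qb promoter: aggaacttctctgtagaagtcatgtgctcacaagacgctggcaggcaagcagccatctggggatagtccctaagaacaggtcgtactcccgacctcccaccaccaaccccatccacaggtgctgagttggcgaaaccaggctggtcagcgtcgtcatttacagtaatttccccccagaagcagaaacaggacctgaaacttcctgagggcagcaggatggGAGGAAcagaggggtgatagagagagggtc
C1qc promoter: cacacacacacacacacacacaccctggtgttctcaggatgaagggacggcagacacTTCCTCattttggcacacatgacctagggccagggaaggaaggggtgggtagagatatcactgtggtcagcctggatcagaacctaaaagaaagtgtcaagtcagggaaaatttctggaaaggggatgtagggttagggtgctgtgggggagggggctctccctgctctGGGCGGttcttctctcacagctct
Each held 1 match to GAGGAA on either strand, at bases 30 to 25 before the start of C1qb and at bases 193 to 188 before that of C1qc. This motif was present in 23.3% of all windows of that length. C1qc also had 1 GC box, and no other searched motif matched in these windows.

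Beyond the 9 genes, the complement pathway was followed through 60 genes, the 9 included. Of these, 31 were tested, and 29 were below the level tested, of which 9 were at 0 in all samples. Among the 31, 4 were higher, 1 was lower and 26 did not pass, against 1.73% higher and 2.18% lower among all tested genes. In 12 of the 31 the Kdm6a-deficient samples were all above and in 4 all below the wild-type ones, and 35.9% of all tested genes did not overlap in one direction or the other. The median log2 fold change was 0.03. The genes that rose were Cd55, Fcna, Vsig4 and Itgax, and C1s1 fell. Vsig4 was tested only because of its level in Kdm6a-deficient BMDMs, and 3 genes were higher where every sample had to reach 1 FPKM. None of 7 genes of the terminal pore (Hc and C6 to C9) reached the level tested, and 4 of them were at 0 in all samples.

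Fcna encodes ficolin A, a lectin that starts the lectin pathway by binding sugars on microbes. It was at 1.53 and 1.29 FPKM in wild-type BMDMs, against 6.81, 8.27 and 7.13 FPKM in Kdm6a-deficient BMDMs, without overlap. Its log2 fold change was 1.80 (SE 0.11, limma adjusted p = 0.000596). Fcnb, its close relative, was at 0.948 and 1.11 FPKM in wild-type, against 1.18, 1.75 and 1.19 FPKM in Kdm6a-deficient BMDMs, which did not pass (limma adjusted p = 0.462).

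Vsig4 encodes a receptor of tissue macrophages that binds fragments of C3 and takes up coated particles. It was at 0.665 and 0.442 FPKM in wild-type BMDMs, against 3.25, 3.10 and 3.76 FPKM in Kdm6a-deficient BMDMs. Vsig4 reached the level tested only through the Kdm6a-deficient samples. Its log2 fold change was 1.49 (SE 0.11, limma adjusted p = 0.00116), which became 2.43 with 0.1 FPKM in place of 1 FPKM added before the log, and the ratio of the mean FPKM was 6.09. The authors' mean normalized counts of Vsig4 were 21.1 (wild-type) and 115 (Kdm6a-deficient).

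Itgax encodes CD11c, the alpha chain of complement receptor 4. It was at 12.2 and 12.8 FPKM in wild-type BMDMs, against 22.7, 23.6 and 20.9 FPKM in Kdm6a-deficient BMDMs, with a log2 fold change of 0.79 (SE 0.08, limma adjusted p = 0.00315). By flow cytometry, the study reported fewer CD11c-positive cells among LPS-treated Kdm6a-deficient BMDMs. That measure of protein on cells ran in the other direction from this RNA. The partners of complement receptors 3 and 4 did not pass. Itgb2, their shared beta chain, had a log2 fold change of 0.28 (limma adjusted p = 0.11) and Itgam, the alpha chain of receptor 3, one of −0.02 (limma adjusted p = 0.957). The receptors for the small fragments released by C3 and C5 cleavage were at 137 to 162 FPKM for C3ar1 and 93.0 to 106 FPKM for C5ar1 over all 5 samples, with log2 fold changes of −0.07 and 0.10 that did not pass (limma adjusted p = 0.77 and 0.54).

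C1s1 encodes C1s, the partner protease of C1q that cleaves C4 and C2. It was at 16.4 and 16.7 FPKM in wild-type BMDMs, against 12.4, 12.1 and 12.8 FPKM in Kdm6a-deficient BMDMs. Its log2 fold change was −0.39 (SE 0.07, limma adjusted p = 0.0299), a call that did not survive leaving out either wild-type sample, Kdm6a-deficient sample 1 or Kdm6a-deficient sample 3 (limma adjusted p = 0.126, 0.276, 0.0984 and 0.126), although the log2 fold change stayed between −0.41 and −0.38 in these fits. C1ra, its partner protease, was at 28.6 and 30.6 FPKM in wild-type, against 24.5, 27.4 and 27.3 FPKM in Kdm6a-deficient BMDMs, without overlap, and did not pass (log2 fold change −0.16, limma adjusted p = 0.369). The summed stromal markers, given above, were lower in the same Kdm6a-deficient samples, while C3, Cfb and Serping1 were higher there without overlap. The part of stromal cells in the values of any of these genes was not tested. C1s1 and C1ra each have a near copy (C1s2 and C1rb), which were at 0.0691 and 0.331 FPKM or less.

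Of the classical pathway substrates, C2 was at 6.07 to 7.93 FPKM and C4b at 1.33 to 1.68 FPKM over all 5 samples, with log2 fold changes of −0.14 and −0.06 that did not pass (limma adjusted p = 0.572 and 0.803). C4b shares most of its sequence with C4a, so that its value is uncertain.

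**Figure D3:**
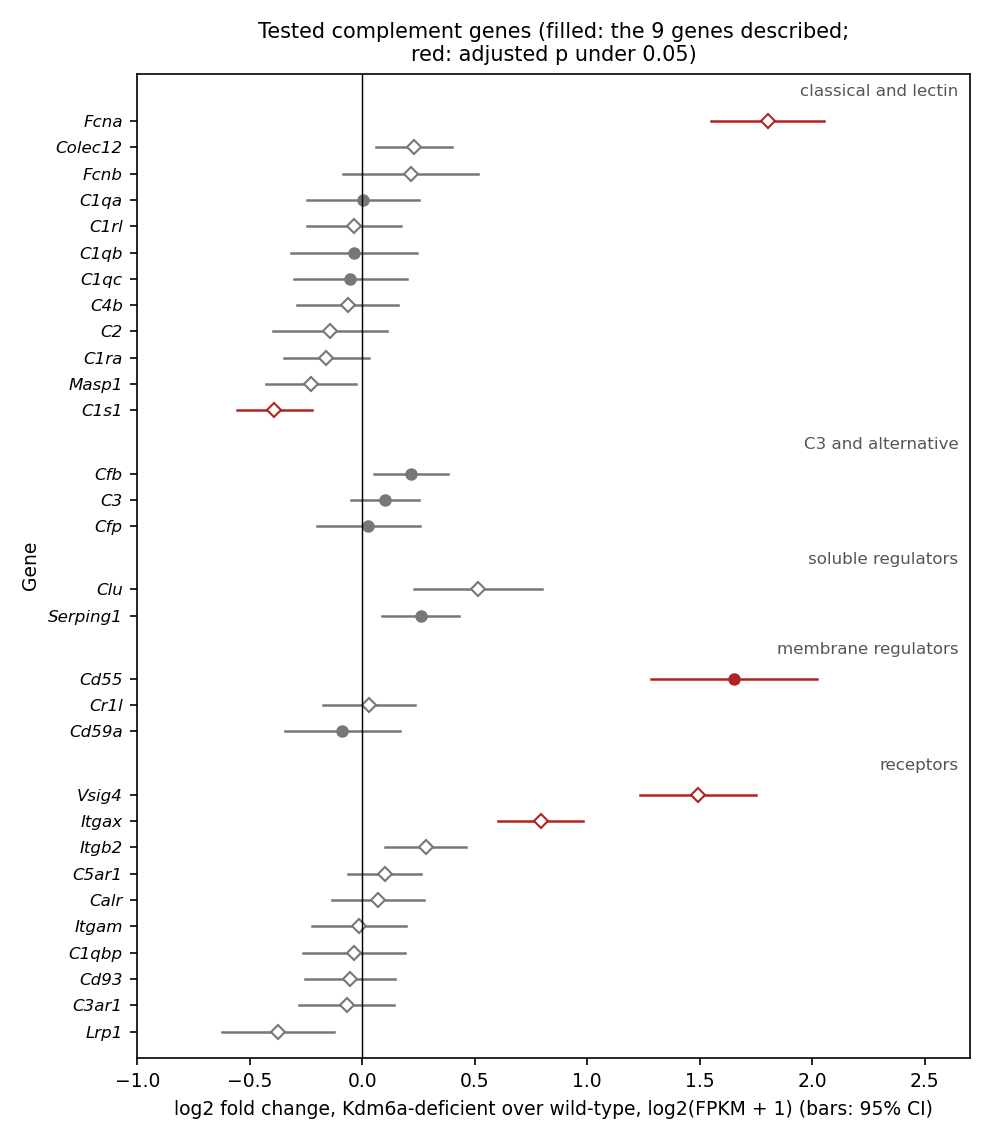
Log2 fold change of Kdm6a-deficient over wild-type BMDMs with its 95% confidence interval from limma for 30 of the 31 tested complement genes, grouped by role. Filled circles are the 9 genes described and open diamonds the others, and red marks an adjusted p under 0.05. Cd55, Fcna and Vsig4 lie between 1.49 and 1.80, apart from the rest, and C1s1 is at −0.39.

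Among the 5 genes whose pattern over the samples was closest to that of Cd55 were Vsig4, Spic, Fcna and Il1a. Likeness was the root mean square difference of log2(FPKM + 1), each gene centred on its mean, over 10884 other tested genes. It was 0.16 for Vsig4, 0.18 for Spic, 0.19 for Fcna and 0.24 for Il1a. Ranks 1 and 3 were held by Vsig4 and Fcna of the complement list, which was chosen with earlier results known. Vsig4 could be compared only because of its level in Kdm6a-deficient BMDMs. Spic, a transcription factor needed for iron-recycling macrophages of the spleen, was at 11.5 and 10.8 FPKM in wild-type and reached 32.2, 35.6 and 33.0 FPKM in Kdm6a-deficient BMDMs. Il1a, which encodes the inflammatory cytokine IL-1 alpha, was at 3.66 and 3.56 FPKM in wild-type and reached 10.9, 9.74 and 11.0 FPKM in Kdm6a-deficient BMDMs. The measure favours genes with a like difference between genotypes. That each Kdm6a-deficient sample was above both wild-type samples in these 4 genes follows from how they were picked. For the mean of the C1q chains the closest genes were Suv420h2, Itm2c, Ebi3, Slc39a7 and Rundc1, within 0.012 to 0.014, and none of them belongs to the complement list.

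**Figure D4:**
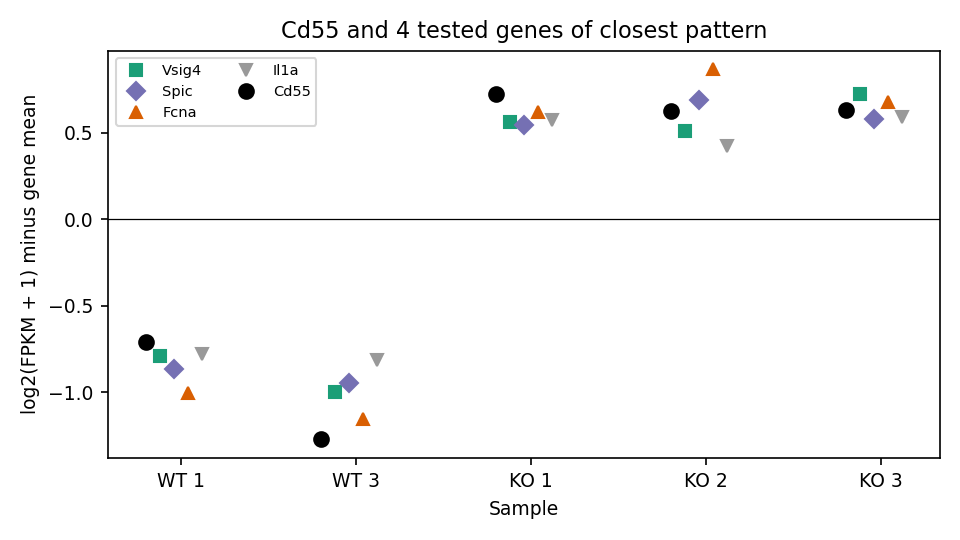
log2(FPKM + 1) of Cd55 and of 4 of the 5 tested genes with the closest pattern, each minus its mean over the 5 samples (WT, wild-type; KO, Kdm6a-deficient). The 5 genes lie below their mean in both wild-type samples and above it in all 3 Kdm6a-deficient samples, and wild-type sample 3 is the lowest for Cd55.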

How the data were processed

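According to the study's methods, the authors aligned reads by TopHat and obtained gene-level FPKM by Cufflinks. The deposited table also holds a signal per genotype, the authors' mean of counts divided by DESeq size factors. Single reads in these means come in 3 step sizes per genotype. Their totals are 19003670 (wild-type) and 18933944 (Kdm6a-deficient), and the depth of each sample is unknown. The table further holds the authors' fold changes and p-values, which were not used. The submitters' notes name Bowtie 0.12.2 and the builds mm8 and mm9 without their roles, with no other version given in the sources used here. The methods name a VAHTS total RNA kit and the labels a TruSeq kit.

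The 10893 genes that reached 1 FPKM in 2 or more samples were tested with limma-trend on log2(FPKM + 1), 2 wild-type against 3 Kdm6a-deficient samples, two-sided, with Benjamini-Hochberg adjustment over all tested genes and a threshold of 0.05. For genes with low FPKM this scale gives too small a fold change. Shares of the C1q chains were compared by exact permutation tests. The fit was tested on simulated data. The fit was repeated with median-of-ratios scaling, with quantile normalization, with a pseudocount of 0.1 FPKM, without the filter, with a replicate block, without each sample in turn and, added after the data were seen, a filter on every sample. The genes described, the complement list and the markers were chosen with earlier results of these data known. The named genes were the 9 described, every gene of the list that passed, further genes of the list whatever their values (Fcna, Cr1l, C3ar1, C5ar1, C1ra, C1s1, C2 and C4b) and the 5 closest patterns. A gene of the list and one of the closest patterns are not reported here. Other list genes named (Fcnb, Itgb2, Itgam, Cfd, Cd46, Csmd1, Hc and the near copies) were picked after their values were seen. Symbols and GeneIDs were read from the deposited table, and chromosomes and neighbours come from RefSeq GRCm38.p6. Tools were limma 3.58.1 in R 4.3.3, and pandas 2.3.3 and matplotlib 3.10.9 in Python 3.11.15.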

Additional observations from a re-analysis of the deposited data

How the results depend on the processing

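The direction and the call of Cd55 held under all 11 alternatives (log2 fold change 1.37 to 1.93 with a sample left out, 1.65 to 1.89 otherwise, adjusted p = 0.00124 to 0.0235 from limma), as did those of Fcna, Itgax and Vsig4 wherever they were tested. Vsig4 was not tested with the filter on every sample, which left 3 higher complement genes. With a sample left out, the complement genes that were higher numbered 4 and those that were lower 0 to 1. Over all genes, 46 to 281 were then higher and 35 to 397 lower.

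The replicate block, which leaves a single residual degree of freedom, called Serping1 (log2 fold change 0.25, limma adjusted p = 0.0221) and Cfb (0.19, adjusted p = 0.047), so that 3 of the 9 genes were higher. It gave 9 higher and 2 lower genes of the complement list, and 436 higher and 560 lower genes over all. The numbers were not taken as pairs. The deviations of same-numbered samples correlated at 0.43 for number 1 and −0.14 for number 3. Kdm6a-deficient sample 2, which has no partner, reached 0.41 with wild-type sample 3. With 2 wild-type samples the deviations mirror each other, so these correlations cannot decide on pairing. The sign of small log2 fold changes was not stable. Kdm6a-deficient sample 2 is alone in its block, so the block gives the same log2 fold changes as leaving that sample out. These alternatives are therefore not separate estimates of the log2 fold change. Both put C1qa at −0.078 and Cfp at −0.049, and with quantile normalization C1qb was at 0.044. With a sample left out, C1qa ranged from −0.078 to 0.063, C1qb from −0.14 to 0.041, C1qc from −0.13 to 0.016 and Cfp from −0.049 to 0.087. The cause was not tested. With a wild-type sample left out, the lone sample is assumed to vary like the other group. No alternative moved the median over all tested genes by more than 0.02 on the log2 scale. Cd59a, at 126 and 123 mean normalized counts, has the least depth of the 9 genes.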
